A study of Mus musculus with 9 samples.

Results

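The 10 genes described here encode enzymes that oxidise aldehydes and purine bases, out of 58735 genes in the deposited count table. They are AOX1, XDH and GDA of the oxidase and purine side, and the aldehyde dehydrogenases ALDH1A1, ALDH1A2, ALDH1A3, ALDH2, ALDH3A1, ALDH3A2 and ALDH7A1. All 10 were found in the table by gene name. The members were chosen by name, but with measured values in view: an earlier analysis of these counts had named AOX1 among the larger differences of both YAP1 constructs from the empty vector, and GDA among the larger ones of wild-type YAP1. Values of the members against the empty vector are therefore given as a description, without p-values. Where a member is said to be called or not called against the empty vector, that too is a description and not a test of the member. Of the 10 genes, 9 passed the filter on low counts, and ALDH3A1 did not.

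Caki, the cell line used, derives from a human carcinoma of the kidney, and each line had received a retroviral construct and G418 selection. The sample titles give the name Caki without a line number. In the YAP1-S127A group a serine of YAP1 that Hippo kinases phosphorylate is replaced by alanine, which keeps YAP1 active, the YAP1 group carried the wild-type protein, and the MX group carried the empty vector. Each group held 3 libraries of messenger RNA, 9 in all, and the labels do not say whether these were separate cultures or whether the lines were clones or pools. The spread behind each p-value is therefore that of the libraries and may be technical. Mouse is the organism given in the labels, whereas all identifiers in the table are human Ensembl genes. The counts are taken as human.

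Aldehyde dehydrogenases use NAD or NADP to turn aldehydes into acids. Those of the ALDH1A branch make retinoic acid from retinaldehyde, ALDH2 clears acetaldehyde in mitochondria, ALDH3A2 handles long-chain fatty aldehydes and ALDH7A1 works in lysine breakdown. AOX1, aldehyde oxidase, and XDH, xanthine dehydrogenase, are related flavoproteins that carry a molybdenum cofactor, and XDH makes urate at the end of purine breakdown. GDA, guanine deaminase, feeds that route by turning guanine into xanthine. In the kidney these enzymes belong largely to the proximal tubule, the segment from which clear cell carcinoma is thought to arise.

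Levels are given in CPM, the counts of a gene per 1000000 counts after TMM scaling of the libraries. Library totals ran from 15789722 to 24811150 counts, so that 3 counts stood for 0.107 to 0.229 CPM, a floor that covers counting error only. The introduced transcript YAP1 averaged 688 ± 55.0 CPM with YAP1-S127A, 1220 ± 268 CPM with YAP1 and 99.9 ± 8.64 CPM in MX (SD, n = 3 each). Mitochondrially encoded transcripts made up 7.40 to 29.6% of counts with YAP1-S127A, 3.50 to 11.4% with YAP1 and 1.896 to 6.60% in MX. The exact two-sided permutation p for YAP1-S127A against MX was 0.1, the smallest that 3 libraries against 3 allow. MX replicate 1 stood apart by its 25491 detected genes, against 22115 and 22738 in the other MX libraries. Without it the log2 fold changes of YAP1-S127A and YAP1 against MX were 2.71 and 2.08 for AOX1, -1.98 and -1.95 for GDA and -1.69 and -1.13 for ALDH1A1, and ALDH2 was also called lower with YAP1-S127A (-0.41). Scaling to total counts, which include mitochondrial ones, moved the median log2 fold change of all tested genes to -0.28 for YAP1-S127A against MX and to -0.20 for YAP1-S127A against YAP1. Of the 11 kidney and clear cell carcinoma markers 8 passed the filter, among them PAX8 at 262 CPM with YAP1-S127A, 297 CPM with YAP1 and 285 CPM in MX. PAX2, LRP2 and CA9, the carbonic anhydrase typical of clear cell carcinoma, were at or near 0, each with a group mean of at most 0.489 CPM.

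AOX1 and GDA differed most from the empty vector among the enzymes, in opposite directions. AOX1 was 6.79-fold higher with YAP1-S127A and 4.37-fold higher with YAP1 than in MX, XDH was 2.09-fold higher with YAP1-S127A and 2.42-fold higher with YAP1, and ALDH1A3 was 2.29-fold higher with YAP1-S127A and 1.56-fold higher with YAP1. GDA and ALDH1A1 were lower with both constructs, and ALDH1A1 was the most abundant member in every group. Lower values of ALDH2, ALDH3A2 and ALDH7A1 were small, each under 2-fold.

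**Figure D1:**
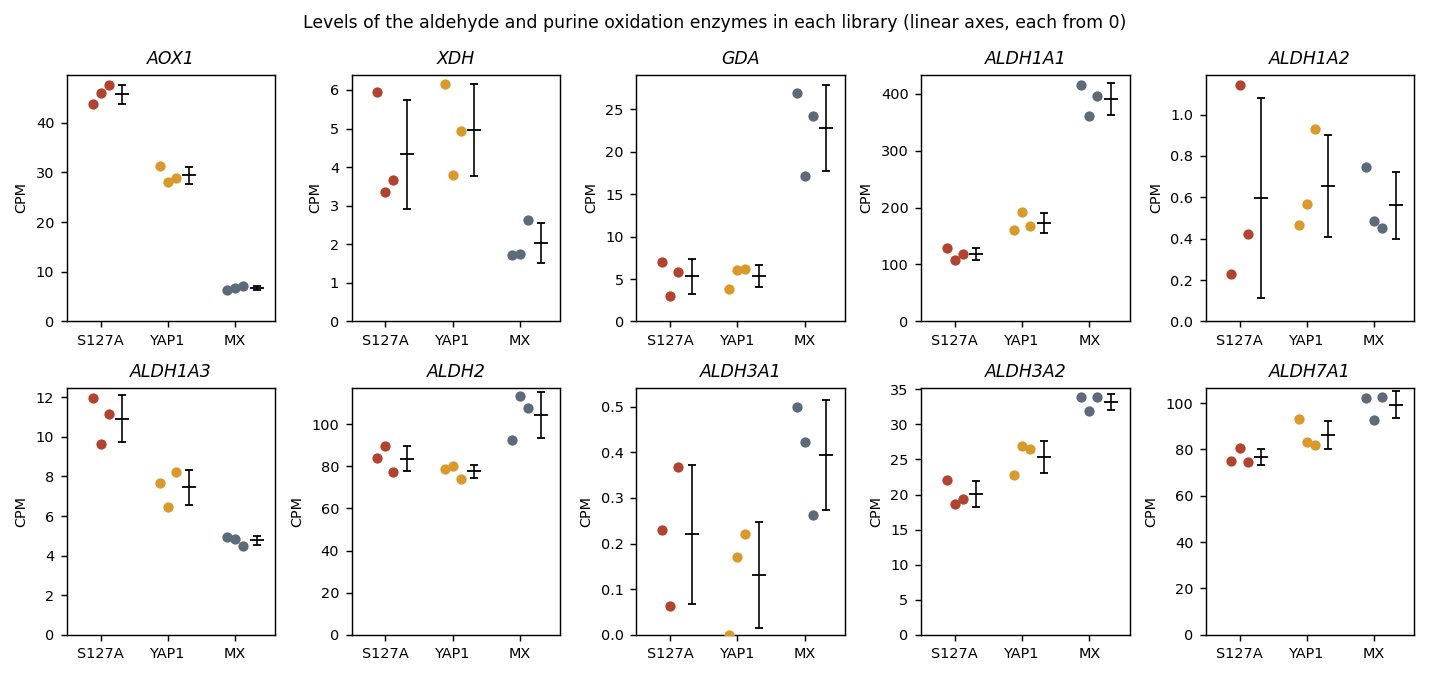
Level of each of the 10 enzymes in CPM (linear axes from 0) in the YAP1-S127A (tick label S127A), YAP1 and MX libraries; dots are single libraries and bars the mean ± SD of 3. AOX1 in MX sits between 6.35 and 7.14 CPM, below every library with a construct, while GDA in MX sits at 17.1 CPM or more, above every such library.

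Of the 9 tested members 3 were higher and 4 lower with YAP1-S127A than in MX at an adjusted p under 0.05 in edgeR's quasi-likelihood fit over 15492 genes, where 9.53% of all tested genes were called higher and 8.84% lower. With YAP1 the counts were 3 higher and 3 lower, where 3.23% of all tested genes were called higher and 3.58% lower. No overlap between the libraries of the groups was seen for 8 of the 9 tested members in YAP1-S127A against MX and for 7 in YAP1 against MX, where the share over all tested genes was 32.6% and 24.1%. The members' median log2 fold change was -0.32 with YAP1-S127A and -0.20 with YAP1, beside medians over all tested genes of -0.00449 and -0.00361. Because the same contrasts helped choose the members, nothing is read from these counts. The comparisons against MX share the 3 MX libraries.

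Among the molybdenum enzymes, AOX1 (ENSG00000138356, chromosome 2, 200585868 to 200677064 on the plus strand in the table's coordinates, with no human build named) oxidises aldehydes and nitrogen heterocycles and releases hydrogen peroxide. AOX1 stood at 43.7, 45.9 and 47.5 CPM in the YAP1-S127A libraries, at 31.2, 28.1 and 28.9 CPM in the YAP1 libraries and at 6.35, 6.71 and 7.14 CPM in the MX libraries. The groups lay apart in the order YAP1-S127A, YAP1, MX, with no overlap anywhere. AOX1 differed from MX by a log2 fold change of 2.76 (SE 0.13) with YAP1-S127A and by 2.13 (SE 0.12) with YAP1.

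The step between the constructs was not the measure by which AOX1 was picked, and it was tested, though it rests on the same construct libraries. AOX1 was higher with YAP1-S127A than with YAP1 by 0.64 on the log2 scale (SE 0.12, 95% interval 0.41 to 0.86, adjusted p = 0.0042 in edgeR's quasi-likelihood test), with all 3 YAP1-S127A libraries above all YAP1 libraries. Scaled to total counts, the log2 fold change of AOX1 was 0.43 (adjusted p = 0.118).

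XDH (ENSG00000158125, chromosome 2, 31334321 to 31414715, minus strand) turns hypoxanthine into xanthine and xanthine into urate. XDH stood at 5.95, 3.36 and 3.68 CPM with YAP1-S127A, at 6.17, 3.796 and 4.92 CPM with YAP1, and at 1.71, 1.75 and 2.63 CPM in MX. Every library with a construct lay above the MX libraries, and the constructs overlapped. The log2 fold change of XDH was 1.06 (SE 0.28) for YAP1-S127A against MX and 1.28 (SE 0.27) for YAP1 against MX. YAP1-S127A replicate 1, which had the highest mitochondrial share, also had the highest XDH of its group. Without that library the difference of YAP1-S127A from MX was 0.78 (SE 0.28) and with the mitochondrial share as a covariate 0.79 (SE 0.40), and neither was called. Between the constructs XDH differed by -0.21 on the log2 scale (SE 0.26, 95% interval -0.73 to 0.30, adjusted p = 0.813).

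The ratio of AOX1 to XDH in CPM, within each library, was 7.35, 13.7 and 12.9 with YAP1-S127A. It was 5.07, 7.39 and 5.87 with YAP1, and 3.71, 3.83 and 2.71 in MX. The ratio was lowest in the MX libraries, below every library with a construct. The deposited lengths of AOX1 and XDH are alike, 5556 and 6037 bases, so AOX1 was the more abundant per length as well in all 9 libraries.

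GDA (ENSG00000119125, chromosome 9, 72114595 to 72257193, plus strand) removes the amino group of guanine. GDA stood at 7.02, 3.04 and 5.88 CPM with YAP1-S127A, at 3.84, 6.06 and 6.21 CPM with YAP1 and at 26.9, 17.1 and 24.3 CPM in MX. The constructs overlapped fully and both lay below MX, whose replicate 2 was the lowest of its group. Against MX, GDA had a log2 fold change of -2.11 (SE 0.26) with YAP1-S127A and -2.09 (SE 0.25) with YAP1. It differed between the constructs by -0.02 on the log2 scale (SE 0.27, 95% interval -0.56 to 0.51, adjusted p = 0.984).

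**Figure D2:**
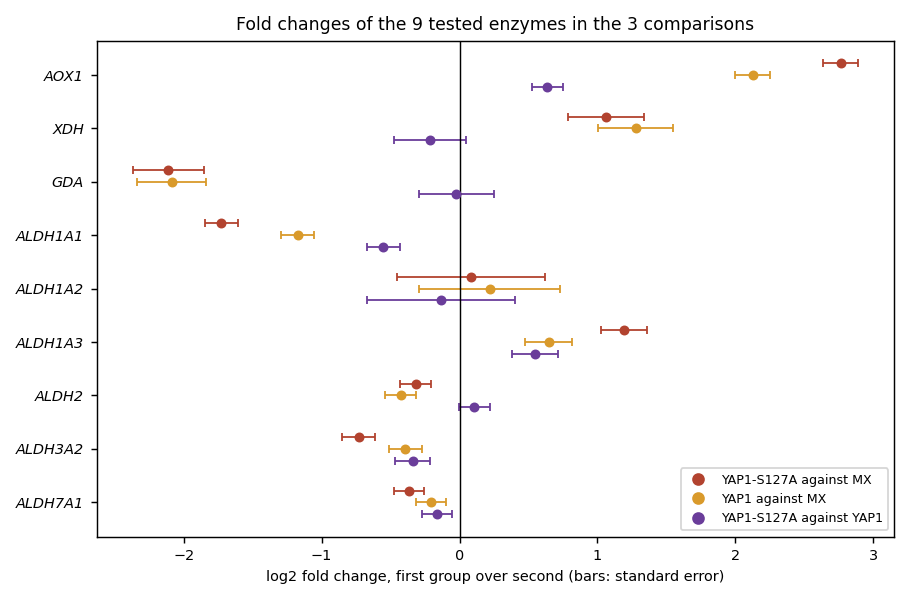
Log2 fold change of the 9 tested enzymes in YAP1-S127A against MX, YAP1 against MX and YAP1-S127A against YAP1, with standard errors as bars. AOX1 lies farthest to the right at 2.76 and 2.13 against MX, GDA farthest to the left at -2.11 and -2.09, and the difference between the constructs is 0.64 for AOX1 and -0.55 for ALDH1A1.

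Among the enzymes that make retinoic acid, ALDH1A1 (ENSG00000165092, chromosome 9, 72900662 to 73080442, minus strand) was by far the most abundant. ALDH1A1 stood at 129, 107 and 118 CPM with YAP1-S127A, at 160, 193 and 167 CPM with YAP1 and at 414, 360 and 396 CPM in MX. The 3 groups did not overlap, with YAP1-S127A lowest and MX highest. The log2 fold change of ALDH1A1 against MX was -1.73 (SE 0.12) with YAP1-S127A and -1.17 (SE 0.12) with YAP1. Between the constructs ALDH1A1 fell by 0.55 on the log2 scale with YAP1-S127A (SE 0.12, 95% interval -0.79 to -0.32, adjusted p = 0.0167 in edgeR's quasi-likelihood test). That call was lost without any 1 of YAP1 replicates 2 and 3 and YAP1-S127A replicates 2 and 3, where the adjusted p was 0.0582 to 0.118 and the log2 fold change -0.58 to -0.48. Which values led to the choice of ALDH1A1 is not known, and the test rests on the same construct libraries.

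ALDH1A3 (ENSG00000184254, chromosome 15, 100877714 to 100916626, plus strand), the retinaldehyde dehydrogenase known as a marker of aldehyde-oxidising tumour cells, went the opposite way at a far lower level. ALDH1A3 stood at 11.97, 9.64 and 11.1 CPM with YAP1-S127A, at 7.67, 6.46 and 8.21 CPM with YAP1 and at 4.96, 4.84 and 4.51 CPM in MX. The groups lay apart in the same order as those of AOX1. Its log2 fold change against MX was 1.19 (SE 0.17) with YAP1-S127A and 0.65 (SE 0.17) with YAP1. The call for YAP1 against MX was lost without MX replicate 3 (0.60) or YAP1 replicate 1 (0.63) or 3 (0.57), and with total counts (0.57). Between the constructs ALDH1A3 differed by 0.55 on the log2 scale (SE 0.16, 95% interval 0.22 to 0.87, adjusted p = 0.107), which did not pass. An antisense gene, AC015712.2, overlaps ALDH1A3 with 652 counts over the 9 libraries, against 1307 for ALDH1A3. AC015712.2 averaged 4.51 ± 0.51 CPM with YAP1-S127A, 3.15 ± 0.51 CPM with YAP1 and 3.34 ± 1.12 CPM in MX (SD, n = 3 each). The strand setting of the counting is not given, so reads of the pair cannot be told apart, and the effect on ALDH1A3 was not tested.

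ALDH1A2 (ENSG00000128918, chromosome 15, 57953424 to 58497866, minus strand), the main retinaldehyde dehydrogenase of the embryo, was barely detected. Its counts were 3, 18 and 8 with YAP1-S127A, 9, 10 and 21 with YAP1 and 21, 8 and 12 in MX, and all 3 groups overlapped. The log2 fold change was 0.08 (SE 0.54) for YAP1-S127A against MX and 0.22 (SE 0.51) for YAP1 against MX, and its sign changed with the scaling or with the libraries used. A difference of ALDH1A2 was not detectable at this depth. The gene body of ALDH1A2 overlaps that of AQP9 and LIPC on the other strand, which had 2073 and 742 counts in the 9 libraries, against 110 for ALDH1A2. AQP9, a water and glycerol channel, averaged 4.83 CPM with YAP1-S127A, 9.08 CPM with YAP1 and 18.2 CPM in MX, and its part in the ALDH1A2 counts was not tested.

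ALDH2 (ENSG00000111275, chromosome 12, 111766887 to 111817529, plus strand) stood at 84.1, 89.4 and 77.4 CPM with YAP1-S127A, at 78.9, 79.9 and 74.0 CPM with YAP1 and at 92.3, 113 and 108 CPM in MX. Both constructs lay below MX and overlapped with each other. The log2 fold change of ALDH2 was -0.32 (SE 0.11) for YAP1-S127A against MX, which edgeR did not call, and -0.43 (SE 0.11) for YAP1 against MX, which it did. The YAP1-S127A difference was called under 6 of 20 alternatives, which were DESeq2 (-0.32), total counts (-0.58), the replicate block (-0.32), a stricter filter (-0.32), a fit of protein-coding genes alone (-0.33) and leaving out MX replicate 1 (-0.41). Chromosome 12 as a whole had a median log2 fold change of -0.06 and -0.14 in these comparisons over 848 tested genes. The YAP1 call was lost without MX replicate 2 (-0.36) or 3 (-0.41) or any 1 of YAP1 replicates 1, 2 and 3 (-0.45 to -0.39). Between the constructs the log2 fold change of ALDH2 was 0.11 (SE 0.11, 95% interval -0.12 to 0.33, adjusted p = 0.775), and -0.09 when scaled to total counts.

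ALDH3A2 (ENSG00000072210, chromosome 17, 19648136 to 19677598, plus strand), whose loss causes Sjögren-Larsson syndrome, stood at 22.1, 18.6 and 19.4 CPM with YAP1-S127A, at 22.8, 26.9 and 26.4 CPM with YAP1 and at 33.9, 31.9 and 33.9 CPM in MX. The 3 groups did not overlap, in the order of ALDH1A1. ALDH3A2 had a log2 fold change of -0.73 (SE 0.12) for YAP1-S127A against MX, which was called, and -0.39 (SE 0.12) for YAP1 against MX, which edgeR did not call. DESeq2 called the YAP1 difference (-0.39), as did edgeR on protein-coding genes only (-0.40), with the replicate block (-0.39) or with the mitochondrial covariate (-0.43). Between the constructs the log2 fold change of ALDH3A2 was -0.34 (SE 0.12, 95% interval -0.58 to -0.10, adjusted p = 0.223). Scaled to total counts it was -0.55, which edgeR called (adjusted p = 0.0398). The neighbouring gene ALDH3A1 (ENSG00000108602, 19737984 to 19748943, minus strand), an abundant enzyme of the cornea, lies 60 kb away. ALDH3A1 had 3, 1 and 7 counts with YAP1-S127A, 0, 3 and 5 with YAP1 and 14, 7 and 7 in MX, and stayed out of the fit.

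ALDH7A1 (ENSG00000164904, chromosome 5, 126531200 to 126595418, minus strand), also called antiquitin, stood at 75.0, 80.8 and 74.7 CPM with YAP1-S127A, at 93.0, 83.3 and 82.0 CPM with YAP1 and at 102, 92.5 and 103 CPM in MX. YAP1-S127A lay below both other groups, and YAP1 overlapped with MX. ALDH7A1 had a log2 fold change of -0.37 (SE 0.11) for YAP1-S127A against MX and -0.20 (SE 0.11) for YAP1 against MX. The YAP1-S127A call was lost without MX replicate 3 (-0.35) or YAP1-S127A replicate 1 (-0.35) or 3 (-0.34), and with the mitochondrial share as a covariate (-0.25). Between the constructs the log2 fold change of ALDH7A1 was -0.16 (SE 0.11, 95% interval -0.38 to 0.05, adjusted p = 0.593).

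Between the constructs, in sum, 1 of the 9 tested members was higher (AOX1) and 1 lower (ALDH1A1), where 1.13% of all tested genes were called higher and 0.839% lower. Groups did not overlap for 5 of the 9 members, AOX1, ALDH1A1, ALDH1A3, ALDH3A2 and ALDH7A1, beside 19.6% of all tested genes. The median log2 fold change of the 9 was -0.14, beside 0.0056 over all tested genes. For each of these 5 members YAP1-S127A lay farther from MX than YAP1 did. XDH and ALDH2 lay nearer to MX with YAP1-S127A, by log2 fold changes of 1.06 and -0.32, than with YAP1, by 1.28 and -0.43. GDA was alike with both (-2.11 and -2.09), and ALDH1A2 was barely detected. Which values led to the choice of members other than AOX1 and GDA is not known, so their p-values may depend on that choice.

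Per kilobase of the gene length deposited with the counts, the level of ALDH1A1 was 41.4 CPM with YAP1-S127A, 60.8 CPM with YAP1 and 137 CPM in MX, the highest of the 10 genes in each group. In YAP1-S127A the next were ALDH2 at 8.61 and AOX1 at 8.23 CPM per kilobase, whose libraries overlapped, and then ALDH7A1 at 4.28. In YAP1 libraries ALDH2 at 7.98 was followed by AOX1 at 5.29 and ALDH7A1 at 4.79 CPM per kilobase, of which the last pair overlapped. In MX the order after ALDH1A1 was ALDH2 at 10.7, ALDH7A1 at 5.52, ALDH3A2 at 5.15 and GDA at 2.88 CPM per kilobase, with ALDH7A1 and ALDH3A2 overlapping. AOX1 came only after GDA in MX, at 1.21 CPM per kilobase, and GDA came after ALDH1A3 with either construct, at 0.672 CPM per kilobase with YAP1-S127A and 0.679 with YAP1, where its libraries overlapped those of XDH. At the bottom stood ALDH1A2 and ALDH3A1, which overlapped in each group. The deposited length covers more bases than a single transcript for some genes (17970 for ALDH7A1), which lowers such a value.

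The 19 aldehyde dehydrogenase genes of the genome summed to 676 ± 16.6 CPM with YAP1-S127A, 748 ± 26.1 CPM with YAP1 and 1006 ± 17.0 CPM in MX (SD, n = 3 each). ALDH1A1 made up 17.5% ± 1.902 of those counts with YAP1-S127A, 23.1% ± 1.53 with YAP1 and 38.8% ± 2.53 in MX. Without ALDH1A1 the other 18 genes summed to 558 ± 25.8 CPM with YAP1-S127A, 575 ± 10.4 CPM with YAP1 and 616 ± 24.8 CPM in MX. The family's sum was thus apart between constructs and MX. Without ALDH1A1 the remainder ranged from 540 to 588 CPM with YAP1-S127A and from 565 to 585 CPM with YAP1. In MX the remainder ranged from 587 to 632 CPM, above every YAP1 library. YAP1-S127A overlapped MX only through its replicate 2, at 587.8 CPM against 587.4 CPM in MX replicate 1. In bulk RNA, fewer cells that express ALDH1A1 and less of its RNA per cell cannot be told apart.

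**Figure D3:**
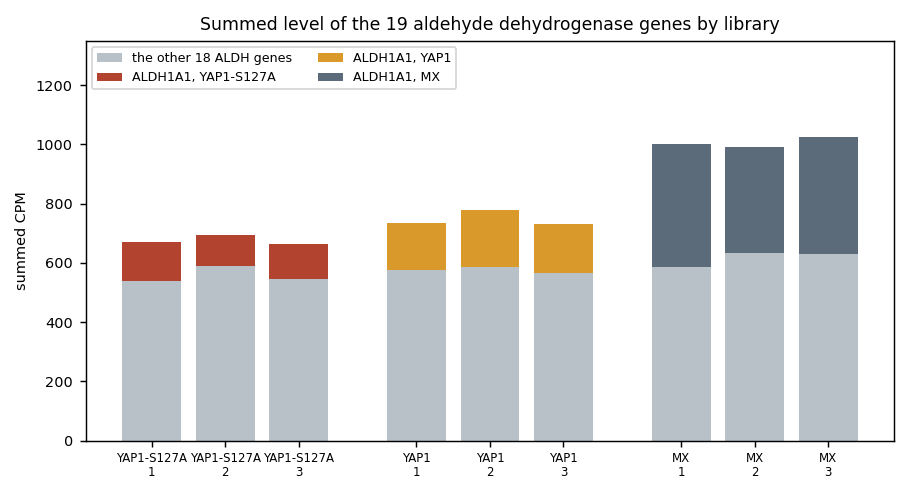
Summed CPM of the 19 aldehyde dehydrogenase genes in each YAP1-S127A, YAP1 and MX library, with ALDH1A1 coloured by group and the other 18 genes in grey. The whole bars reach 664 to 695 CPM with YAP1-S127A, 731 to 778 CPM with YAP1 and 992 to 1025 CPM in MX, and most of that step lies in the coloured part.

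The related genes below come from lists drawn up with earlier results of the same comparisons known, so their p-values are not independent evidence of a direction. The aldehyde dehydrogenases outside the members had 9 of 12 genes tested, and edgeR called 0 of them in any of the 3 comparisons. With no adjustment, 1 gene had a p under 0.05 for YAP1-S127A against MX, 1 for YAP1 against MX and 0 between the constructs. DESeq2 and limma-voom each called 0. ALDH18A1, which makes a precursor of proline and is the most abundant of them, stood at 174 ± 24.1 CPM with YAP1-S127A, 172 ± 8.46 CPM with YAP1 and 172 ± 10.2 CPM in MX (SD, n = 3 each). Their median log2 fold change was -0.16 with YAP1-S127A and -0.07 with YAP1.

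Of 8 genes of the molybdenum cofactor and its other enzymes, all tested, 0 were higher and 1 was lower against MX with either construct. Over all tested genes 9.53% were called higher and 8.84% lower with YAP1-S127A, and 3.23% and 3.58% with YAP1. The lower gene was SUOX, sulfite oxidase of the mitochondria, at 12.4 ± 1.59 CPM with YAP1-S127A, 12.7 ± 0.94 CPM with YAP1 and 18.7 ± 1.93 CPM in MX (SD, n = 3 each). In edgeR's test SUOX fell by 0.59 on the log2 scale with YAP1-S127A (SE 0.14, adjusted p = 0.00679) and by 0.55 with YAP1 (SE 0.14, adjusted p = 0.0216). The YAP1-S127A call was lost without YAP1-S127A replicate 3 and with the mitochondrial covariate, and the YAP1 call without MX replicate 2 or any 1 of YAP1 replicates 1, 2 and 3, with an adjusted p of at most 0.0933. MOCOS, which adds the sulfur that AOX1 and XDH need for activity, stood 0.21 higher on the log2 scale with YAP1-S127A (adjusted p = 0.273) and 0.20 higher with YAP1 (adjusted p = 0.431), and is named here for that role, outside the naming rule.

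Of 17 tested genes of purine breakdown and salvage 4 rose and 1 fell with YAP1-S127A, and 2 rose and 0 fell with YAP1. The shares over all tested genes were 9.53% higher and 8.84% lower with YAP1-S127A, and 3.23% and 3.58% with YAP1. NT5E, the surface enzyme CD73 that makes adenosine from AMP, stood at 132 ± 15.0 CPM with YAP1-S127A, 114 ± 12.2 CPM with YAP1 and 71.7 ± 5.48 CPM in MX (SD, n = 3 each). NT5E rose by 0.89 on the log2 scale with YAP1-S127A (SE 0.12, adjusted p = 3.91e-05) and by 0.67 with YAP1 (SE 0.12, adjusted p = 0.00172). ABCG2, a transporter that exports urate, rose by 1.56 with YAP1-S127A (SE 0.36, adjusted p = 0.00433), at only 2.09 CPM against 0.727 CPM in MX. AMPD3, an AMP deaminase, fell by 0.64 with YAP1-S127A (SE 0.17, adjusted p = 0.0122), a call lost without YAP1-S127A replicate 3 and with the mitochondrial covariate, and AMPD2, another AMP deaminase, rose by 0.38 with YAP1 (SE 0.11, adjusted p = 0.0475), a call lost under 12 of 20 alternatives. The other 2 calls with YAP1-S127A, named after their values were seen, were SLC2A9, a urate transporter (0.71, SE 0.21, adjusted p = 0.0265, lost under 5 of 20), and ADK, adenosine kinase (0.34, SE 0.11, adjusted p = 0.0312, lost under 11 of 20). PNP and HPRT1, the enzymes on either side of hypoxanthine and guanine, did not pass in either comparison, with log2 fold changes of -0.04 and -0.09 with YAP1-S127A and of 0.05 and -0.17 with YAP1, and are named for their role, outside the rule.

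Of 13 tested genes of retinoid handling 2 rose and 5 fell with YAP1-S127A, and 1 rose and 2 fell with YAP1. Beside these counts, 9.53% of all tested genes were called higher and 8.84% lower with YAP1-S127A, and 3.23% and 3.58% with YAP1. CRABP2, which carries retinoic acid to its nuclear receptors, stood at 20.7 ± 3.29 CPM with YAP1-S127A, 26.0 ± 8.86 CPM with YAP1 and 62.7 ± 10.3 CPM in MX (SD, n = 3 each). CRABP2 fell by 1.60 on the log2 scale with YAP1-S127A (SE 0.21, adjusted p = 9.55e-05) and by 1.27 with YAP1 (SE 0.21, adjusted p = 0.00147). DHRS3, a reductase that turns retinaldehyde back into retinol, fell by 2.01 with YAP1-S127A (SE 0.34, adjusted p = 0.000502) and by 1.60 with YAP1 (SE 0.32, adjusted p = 0.00519). DHRS9, a dehydrogenase that can form retinaldehyde, rose by 2.66 with YAP1-S127A (SE 0.41, adjusted p = 0.000124) and by 1.47 with YAP1 (SE 0.44, adjusted p = 0.0489), the YAP1 call lost under 13 of 19 alternatives. DHRS9 was low throughout, at 1.94 ± 0.23 CPM with YAP1-S127A, 0.854 ± 0.20 CPM with YAP1 and 0.320 ± 0.14 CPM in MX (SD, n = 3 each). With 7, 8 and 6 counts in MX, DHRS9 passed the filter on low counts only through the construct libraries, where it was higher. Its calls are therefore a description.

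Of the other retinoid genes called with YAP1-S127A, 3 are described, named after their values were seen. LRAT, which stores retinol as esters, fell by 1.39 (SE 0.25, adjusted p = 0.000617). RDH11, a retinal reductase, fell by 0.44 (SE 0.13, adjusted p = 0.0243), and RARG, a retinoic acid receptor, rose by 0.44 (SE 0.15, adjusted p = 0.0488). Calls were lost without single libraries for RDH11 (3 libraries). The RARG call was lost under 10 of 20 alternatives, 7 of them single libraries left out, with a log2 fold change of 0.19 under total counts and 0.26 without YAP1-S127A replicate 2. With the mitochondrial share as a covariate the calls of DHRS3, LRAT and RDH11 in YAP1-S127A against MX were lost, with an adjusted p of at least 0.0529, while those of CRABP2 and DHRS9 held. CYP26A1, CYP26B1, RARB, STRA6, CRABP1 and RXRG had too few counts to be tested, RXRG with 0 counts in all 9 libraries.

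**Figure D4:**
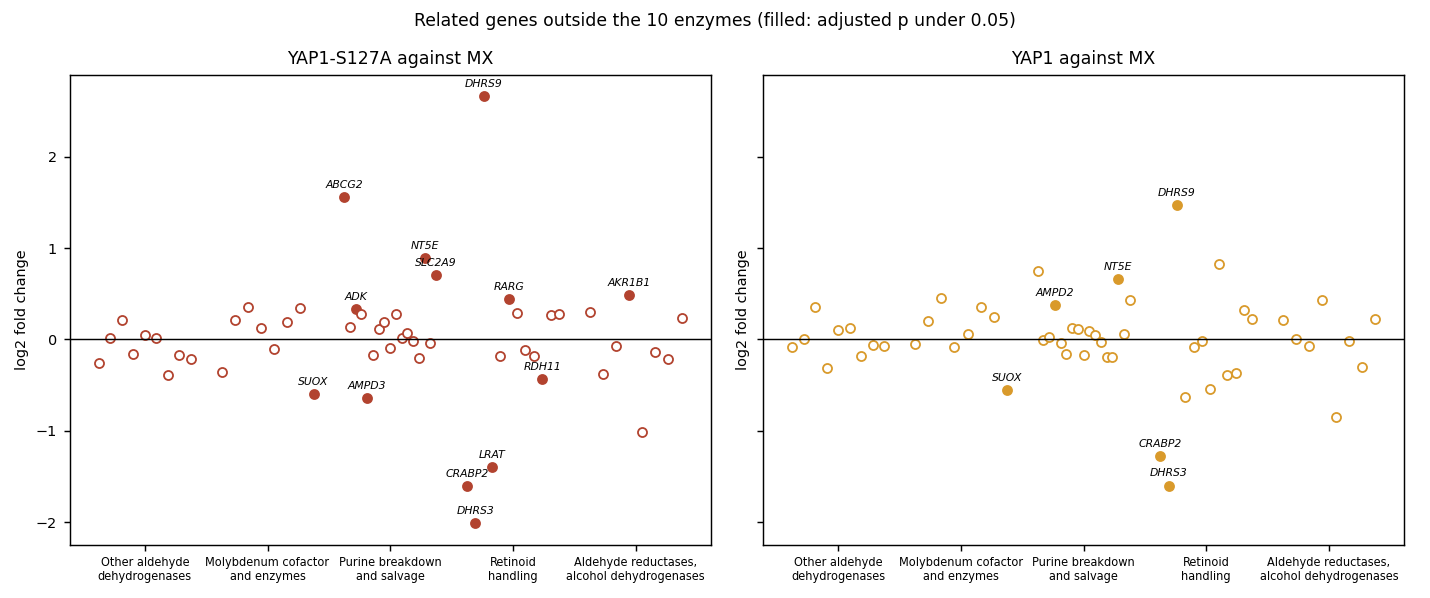
Log2 fold change of 54 of the 55 tested related genes in YAP1-S127A against MX and in YAP1 against MX, by list, with filled and named points at an adjusted p under 0.05. DHRS9 at 2.66 and DHRS3 at -2.01 mark the ends with YAP1-S127A, while the 9 other aldehyde dehydrogenases are all open points. DHRS9 passed the filter on low counts only through the construct libraries.

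Among the aldehyde reductases and alcohol dehydrogenases 8 of 14 genes were tested, and 1 rose with YAP1-S127A, beside 9.53% of all tested genes. This was AKR1B1, aldose reductase, at 1615 ± 148 CPM with YAP1-S127A, 1550 ± 71.4 CPM with YAP1 and 1153 ± 167 CPM in MX (SD, n = 3 each), a log2 difference of 0.49 (SE 0.14, adjusted p = 0.0181). The call of AKR1B1 was lost without MX replicate 1 or YAP1-S127A replicate 1 or 2, and under total counts or the mitochondrial covariate, with an adjusted p of at most 0.35. With YAP1 edgeR called 0 of the 8, while 3 had a p under 0.05 before adjustment, DESeq2 called 1 and limma-voom 0. Between YAP1-S127A and YAP1 edgeR called 0 of all 55 related genes, while 7 had a p under 0.05 before adjustment, DESeq2 called 2 and limma-voom 0.

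Of 71 related genes in the 5 lists, 55 were tested, and 7 rose and 7 fell with YAP1-S127A, while 3 rose and 3 fell with YAP1. With the mitochondrial share as a covariate 4 rose and 1 fell with YAP1-S127A. Without YAP1-S127A replicate 1 they were 3 and 5 and without replicate 2 they were 3 and 6, and in YAP1 against MX they were 1 and 2 without YAP1 replicate 1 or 3. The main counts stand beside the 9.53% and 8.84% of all tested genes called with YAP1-S127A and the 3.23% and 3.58% called with YAP1. Their median log2 fold change was 0.02 with YAP1-S127A and -0.00088 with YAP1.

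GDA and ALDH1A1 lie on the same arm of chromosome 9, 643 kb apart. Both are members, so their low values against MX are a description here as well. Of the 8 tested genes within 1 Mb of GDA, ALDH1A1 was the only one called lower against MX with either construct. Over all tested genes 8.84% were called lower with YAP1-S127A and 3.58% with YAP1. The tested genes between GDA and ALDH1A1 were not called. They were ZFAND5, a ubiquitin-binding zinc finger protein, and the long noncoding LINC01504. ZFAND5 had a log2 fold change of -0.16 (SE 0.11) with YAP1-S127A and -0.13 (SE 0.11) with YAP1, and LINC01504 of -0.14 (SE 0.30) and -0.54 (SE 0.30). ANXA1, annexin A1, on the far side of ALDH1A1, differed on the log2 scale by 0.31 (SE 0.12, adjusted p = 0.0949) with YAP1-S127A and -0.02 (SE 0.12, adjusted p = 0.963) with YAP1. TRPM3, an ion channel gene at under 1 CPM in each group, had log2 fold changes of -0.57 (SE 0.46, adjusted p = 0.442) with YAP1-S127A and -1.31 (SE 0.48, adjusted p = 0.118) with YAP1, the YAP1 value lying below that of ALDH1A1. C9orf85, on the other side of GDA, was called higher with YAP1-S127A (0.63, SE 0.19, adjusted p = 0.0243). All 592 tested genes of chromosome 9 had a median log2 fold change of 0.12 with YAP1-S127A and 0.08 with YAP1.

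**Figure D5:**
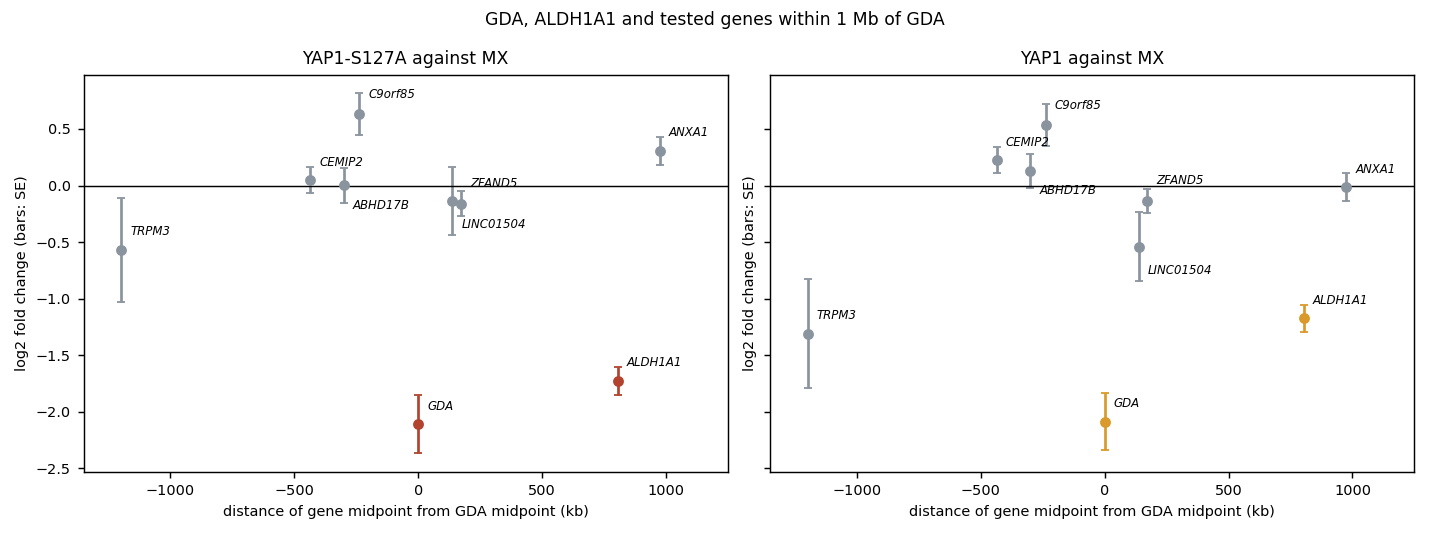
Log2 fold change, with standard errors as bars, of GDA, ALDH1A1 (both coloured) and the 7 other tested genes within 1 Mb of GDA, by distance of gene midpoints from that of GDA, in YAP1-S127A against MX and YAP1 against MX. GDA at -2.11 and -2.09 and ALDH1A1 at -1.73 and -1.17 lie low, as does TRPM3 with YAP1 at -1.31 with a wide error, while ZFAND5 and LINC01504 between the coloured genes lie at -0.16 to -0.13 and -0.54 to -0.14.

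The genes whose log2 CPM followed AOX1 most closely over the 9 libraries, among 9522 protein-coding candidates, were AJUBA (Pearson's r = 0.991), CYTH3 (0.990), COL12A1 (0.990), PDP1 (0.990) and CDH13 (0.988). AJUBA, a LIM protein that binds the Hippo kinases, had a log2 fold change of 1.41 with YAP1-S127A and 0.93 with YAP1. For GDA they were MTRR (0.964), HGF (0.962), NUP107 (0.961), PLPP3 (0.959) and PELI1 (0.958). HGF, the ligand of the receptor MET, stood at 11.03 CPM with YAP1-S127A, 12.2 CPM with YAP1 and 31.2 CPM in MX. Among the members, AOX1 correlated with ALDH1A1 at -0.988 and with ALDH1A3 at 0.937, and ALDH1A1 with ALDH3A2 at 0.970. These values describe 9 libraries in 3 groups that share the step between groups, and carry no test.

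Markers of other cell types were read beside the members. AOX1, XDH and ALDH2 are abundant in liver, and the 7 hepatocyte markers summed to 43.4 to 53.7 CPM with YAP1-S127A, 87.7 to 104 CPM with YAP1 and 182 to 224 CPM in MX. That sum was almost all SERPINA1, at 48.5 ± 5.40 CPM with YAP1-S127A, 97.2 ± 8.82 CPM with YAP1 and 202 ± 20.8 CPM in MX (SD, n = 3 each), and each of the other 6 had a group mean of at most 0.381 CPM, APOB being at 0. The 3 adipocyte markers summed to at most 0.321 CPM, the 4 leukocyte markers to at most 1.68 CPM and the 3 endothelial markers to at most 1.75 CPM in any library. The 5 fibroblast markers summed to 2146 to 3953 CPM with YAP1-S127A, 1336 to 1689 CPM with YAP1 and 774 to 1308 CPM in MX, nearly all of it COL1A1. That sum had the group order of AOX1, and its part in the result was not tested. COL1A2 had the same order, at 80.5 CPM with YAP1-S127A, 7.50 CPM with YAP1 and 0.741 CPM in MX. LUM had it as well, at 9.53 CPM with YAP1-S127A, 2.53 CPM with YAP1 and 0.871 CPM in MX. PDGFRB did not have that order, at 46.8 CPM with YAP1-S127A, 26.0 CPM with YAP1 and 30.2 CPM in MX. Nor did DCN, at 0.792 CPM with YAP1-S127A, 0.371 CPM with YAP1 and 0.706 CPM in MX.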

How the data were processed

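The authors deposited a table of whole-number read counts, with 1 column for each of the 9 libraries and no normalization visible. Gene lengths were deposited beside them. The tools listed per the submitters' processing notes are Salmon 1.9.0, HISAT2 and Cufflinks, beside GRCm39, a mouse build that does not describe the human genes of the table. No source used here names the human build, the counter or whether strand was used, so reads of overlapping genes may be shared. Per the labels' protocols the libraries were stranded messenger RNA.

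From the counts, edgeR's filterByExpr kept 15492 of 58735 genes. TMM scaled the 9 libraries, which entered a single fit in edgeR 4.0.16 (R 4.3.3), with robust quasi-likelihood dispersions and group as the only term. P-values are two-sided and were adjusted by Benjamini-Hochberg over the whole set of tested genes, with calls at an adjusted p under 0.05. Standard errors come from the log2 fold change and its F statistic, and 95% intervals are normal limits from that error. Log2 CPM for correlations had a prior count of 2.

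The members and gene lists were chosen with earlier results of these data known. The naming rule took all members, up to 3 called genes with the smallest p per related list and comparison, and, of protein-coding genes averaging 3 or more in log2 CPM, the 5 most correlated with AOX1 and with GDA. MTARC1 and MTARC2 were matched by description, since the table lists their older symbols as dates. Alternatives were other scalings and filters, DESeq2 1.42.0, limma-voom (limma 3.58.1), the groups compared alone, the replicate number as a block, the mitochondrial share as covariate, and each library left out. The fit was checked on simulated counts. A single gene of the retinoid list is counted but not reported here. No human reference was at hand, so no sequences are given.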

Additional observations from a re-analysis of the deposited data

How the results depend on the processing

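Each fit was repeated under 20 alternatives. Of 536 refitted member values, 491 kept their direction and their side of the threshold. Those that changed sign were never called. They were ALDH1A2 in YAP1-S127A against MX (-0.17 under total counts, -0.13 with limma-voom, -0.013 with the replicate block, and -0.75 to 0.42 without single libraries), ALDH1A2 in YAP1 against MX (-0.14 to 0.50 without single libraries), and, between the constructs, ALDH1A2 (0.36 with the mitochondrial covariate, -0.97 to 0.22 without single libraries), GDA (-0.26 to 0.25 without single libraries) and ALDH2 (-0.092 under total counts). Members called ranged from 4 to 6 without single libraries in YAP1 against MX, from 5 to 8 in YAP1-S127A against MX and from 1 to 2 between the constructs.

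Over all genes, YAP1-S127A against MX gave 4447 calls under total counts (611 higher, 3836 lower, against 1476 and 1369) and 1405 with the mitochondrial covariate, against 2845. Between the constructs it was 616 under total counts (113 higher, 503 lower, against 175 and 130), 520 with no filter, 475 with DESeq2, 478 with the groups compared alone and 472 with the replicate block, against 305. Without single libraries the counts were 601 (YAP1 replicate 3, and 639 without YAP1 replicate 2) to 1423 (MX replicate 1) in YAP1 against MX, 1847 (YAP1-S127A replicate 3) to 3079 (MX replicate 1) in YAP1-S127A against MX and 126 (YAP1-S127A replicate 3) to 465 (MX replicate 1) between the constructs, where leaving out YAP1 replicate 1, 2 or 3 gave 189, 166 or 144 and YAP1-S127A replicate 2 gave 188. Related genes called were 3 to 7, 8 to 14 and 0 to 2 (2 without YAP1-S127A replicate 1) in these comparisons, 5 with the mitochondrial covariate in YAP1-S127A against MX, and, between the constructs, 2 under total counts, 1 with no filter, 2 with DESeq2 and 1 with the covariate. Same-numbered libraries of different groups deviated from their group means with correlations of -0.18 to 0.20, and differently numbered ones with -0.25 to 0.21. Neither these values nor the labels settle whether the numbers pair the libraries. The replicate block gave 1428 calls in YAP1 against MX (1055 without it) and 3426 in YAP1-S127A against MX (2845 without it). With the replicate block ALDH2 in YAP1-S127A against MX (-0.32) and ALDH3A2 in YAP1 against MX (-0.39) became called, and no other member's call changed. The cause of these changes was not tested. ALDH1A2 and ALDH3A1 are limited by depth.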
